A study of Mus musculus with 6 samples.

Results

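The transcription factors that commit cells to the T lineage were followed here by 10 genes: Gata3, Bcl11b, Ikzf1, Runx1, Runx3, Ets1, Ets2, Tcf12, Tcf3 and Id3. They and the other gene lists below were chosen by name, with earlier results of these data known. Counts of their members set beside all features therefore only describe these values. Every probe set of the array whose platform annotation gives only the symbol of one of the 10 genes was taken. This gave 31 of 34945 probe sets with 1 gene symbol and 10 of 18193 genes. Gata3 and Id3 had 1 probe set each and Runx1 had the most, 6. RNA came from CD25+ spleen cells of a mouse T-cell acute lymphoblastic leukaemia (T-ALL), taken 4 weeks after transplantation into congenic recipients and sorted by GFP into MycGFP positive cells (3 arrays) and MycGFP negative cells (3 arrays). All 6 samples carried the same labels otherwise: strain C57BL/6, age 12 weeks and genotype Notch1[delta]E mycGFP, so the activated NOTCH1 receptor that drives the leukaemia and the GFP-tagged c-Myc reporter were present in both groups. The design names 3 independent leukaemias that were each sorted, both groups are numbered 1 to 3, and no normal thymocytes were part of the comparison. The comparison asks how leukaemia cells with MYC protein, the initiating cells of the series title, differ from cells of the same disease without it. The recipients keep blood cells of their own, and the labels do not say what the mCherry marks that was also used in the sort.

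A progenitor that enters the thymus becomes a T cell under NOTCH1 signalling, which raises GATA3 and the TCF1 factor, and these in turn help to switch on BCL11B, whose appearance marks commitment. RUNX and ETS factors act beside them on the enhancers of T cell genes. The E proteins encoded by Tcf3 and Tcf12 bind E-box sequences as dimers and drive recombination of the T cell receptor genes, ID3 holds them off by forming dimers that cannot bind DNA, and Ikaros, the product of Ikzf1, restrains NOTCH target genes and is a tumour suppressor in mouse T-ALL.

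Each array gave an intensity on a linear scale for 45101 probe sets, and the array medians were 30.5 to 31.4 on MycGFP positive and 31.7 to 32.7 on MycGFP negative arrays. Myc, the check of the sort, had 2628, 3390 and 2274 on positive arrays, against 801, 1135 and 1303 on negative arrays (2.58-fold higher, limma, adjusted p = 0.0329). The Myc call was lost without positive array 1, 2 or 3 or negative array 2 (adjusted p = 0.0786 to 0.108). The 6 measured genes that define a CD25+ T-lineage leukaemia (Cd3e, Cd3g, Cd3d, Thy1, Il2ra and Notch1) were above the array median on all 6 arrays. Their summed intensity was 44550 to 55918 on positive and 53411 to 62324 on negative arrays. None of the 6 passed the test (limma), beside 6.13% of all genes, and 0 had an unadjusted p under 0.05, beside 22.1%. Across the 18193 genes, 840 were higher and 275 lower at an adjusted p under 0.05. When each array was centred on its median over the genes, these counts were 502 and 381, and after quantile normalization 510 and 383. The Gapdh control probe sets, which report RNA quality, had a 3' to 5' ratio of 1.48 to 1.58 on positive and 1.58 to 1.89 on negative arrays, and that of actin was 1.72 to 1.85 on positive and 1.54 to 1.87 on negative arrays. The part of RNA quality in the differences given here was not tested.

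Some markers of other blood cells were dim on all arrays and others were not. Of 11 measured natural killer and innate lymphoid genes, 4 lay below the median on all 6 arrays. So did 4 of 9 B cell genes, 3 of 12 myeloid genes and 1 of 5 erythroid genes. The lowest value of any probe set on an array was 2.89 to 3.20, so no marker could read 0. The summed intensity of the natural killer list was 376 to 918 on positive and 633 to 1035 on negative arrays, that of the B cell list 164 to 545 on positive and 266 to 851 on negative arrays, and that of the erythroid list 165 to 385 on positive and 115 to 409 on negative arrays. The myeloid list reached 2881 on positive array 2 and 10835 on negative array 2, with 642 to 1149 on the other positive and 465 to 1393 on the other negative arrays. None of the 4 lists held a gene that passed (limma), beside 6.13% of all genes. Lower at an unadjusted p under 0.05 were 1 natural killer gene and 1 erythroid gene, beside 7.35% of all genes. With the array number as a block, 1.95% of all genes were called lower in positive cells (limma). Among them were Klrd1, a natural killer receptor gene (adjusted p = 0.041), Cd79b, a B cell receptor gene (0.0452), and S100a9, a neutrophil gene (0.0482).

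None of the 10 factors passed the test between MycGFP positive and MycGFP negative cells. In that test, where the probe set with the highest mean stands for its gene, the log2 difference, positive minus negative, was below 0 for 8 of the 10 factors, beside 8801 of 18193 genes, with a median of -0.30 beside 0.01 for all genes. In limma's two-sided test none reached an adjusted p under 0.05, beside 6.13% of all genes, 4.62% higher and 1.51% lower. The smallest adjusted p was 0.0978, for Ets2. At an unadjusted p under 0.05, 3 of the 10 were lower and 0 higher, beside 7.35% and 14.7% of all genes. For 4 of the 10 (Bcl11b, Ets1, Ets2 and Tcf12) all 3 positive arrays lay below all 3 negative arrays, beside 11.2% of all genes, and for the other 6 the groups overlapped. With the array number as a block 0 of the 10 were lower and 0 higher, beside 1.95% and 5.75% of all genes. In bulk samples, fewer cells of a type and less RNA per cell cannot be told apart. An exact permutation of 3 against 3 arrays cannot give a p below 0.1, so the fit across all features was used. The plot of the 10 factors by array shows these values.

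**Figure D1:**
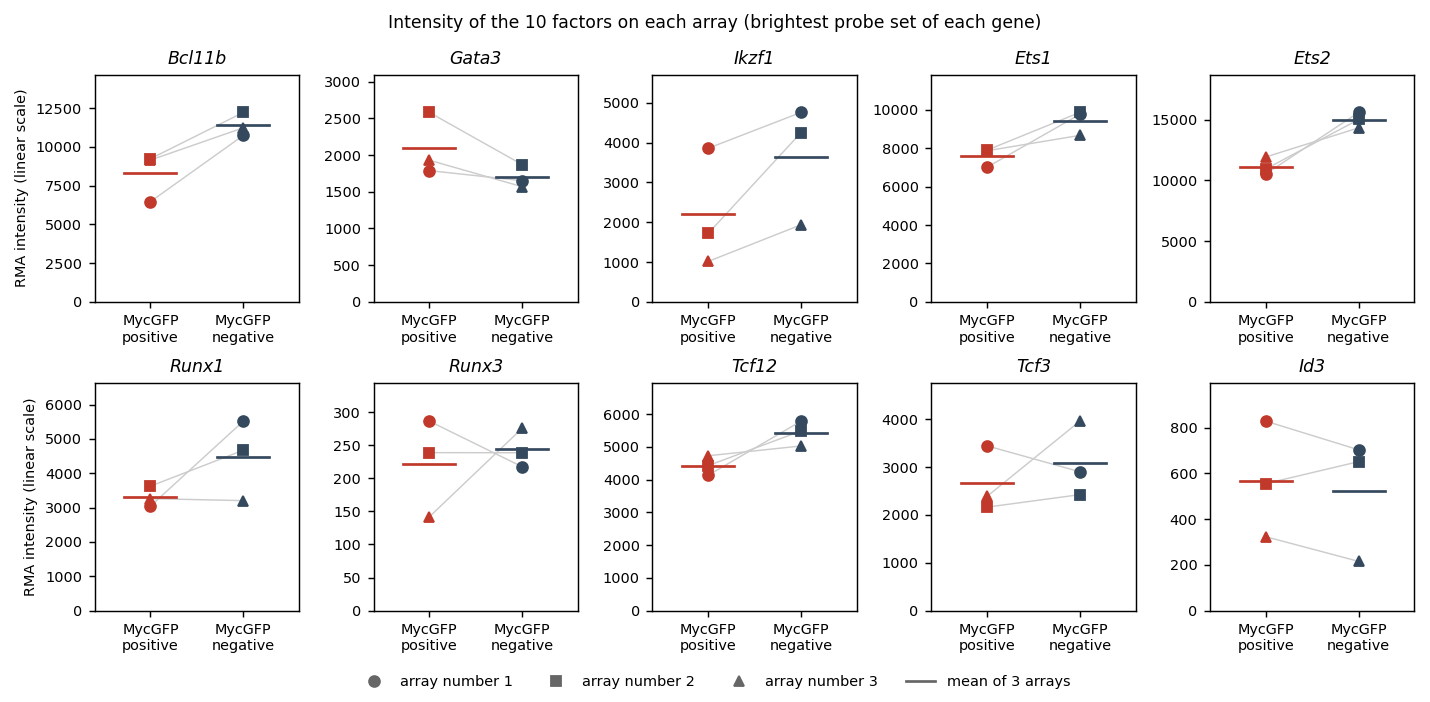
RMA intensity (linear scale, from 0) of the brightest probe set of each of the 10 factors on the 3 MycGFP positive (red, left) and 3 MycGFP negative (dark, right) arrays; symbols give the array number, grey lines join arrays of one number and bars are means of 3 arrays. The groups separate for Bcl11b, Ets1, Ets2 and Tcf12, while Ikzf1, Id3, Tcf3 and Runx3 spread more within each group than between the group means.

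In the test of all 34945 named probe sets, 4 of the 31 passed, all lower in MycGFP positive cells: 2 of Ets1, 1 of Runx1 and 1 of Tcf12. Of all named probe sets, 6.92% were called, 2.16% lower and 4.76% higher. At an unadjusted p under 0.05, 11 of the 31 were lower and 0 higher, beside 8.49% and 14.1%. The difference was below 0 at 28 of the 31, beside 17065 of the 34945, and all 3 positive arrays lay below all 3 negative arrays at 14, beside 12.0% of all named probe sets. At 0 of the 31 they all lay above, beside 16.6%. With the array number as a block 3 were called lower and 0 higher, beside 2.58% and 5.41%. Probe sets of one gene read the same RNA, so these counts are not of independent items. Left out singly, positive array 2, positive array 3 or negative array 2 took the count to 0, positive array 1 to 1 and negative array 1 to 2. Without positive array 2, 0 of all named probe sets passed. The plot of differences by probe set gives each with its interval.

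**Figure D2:**
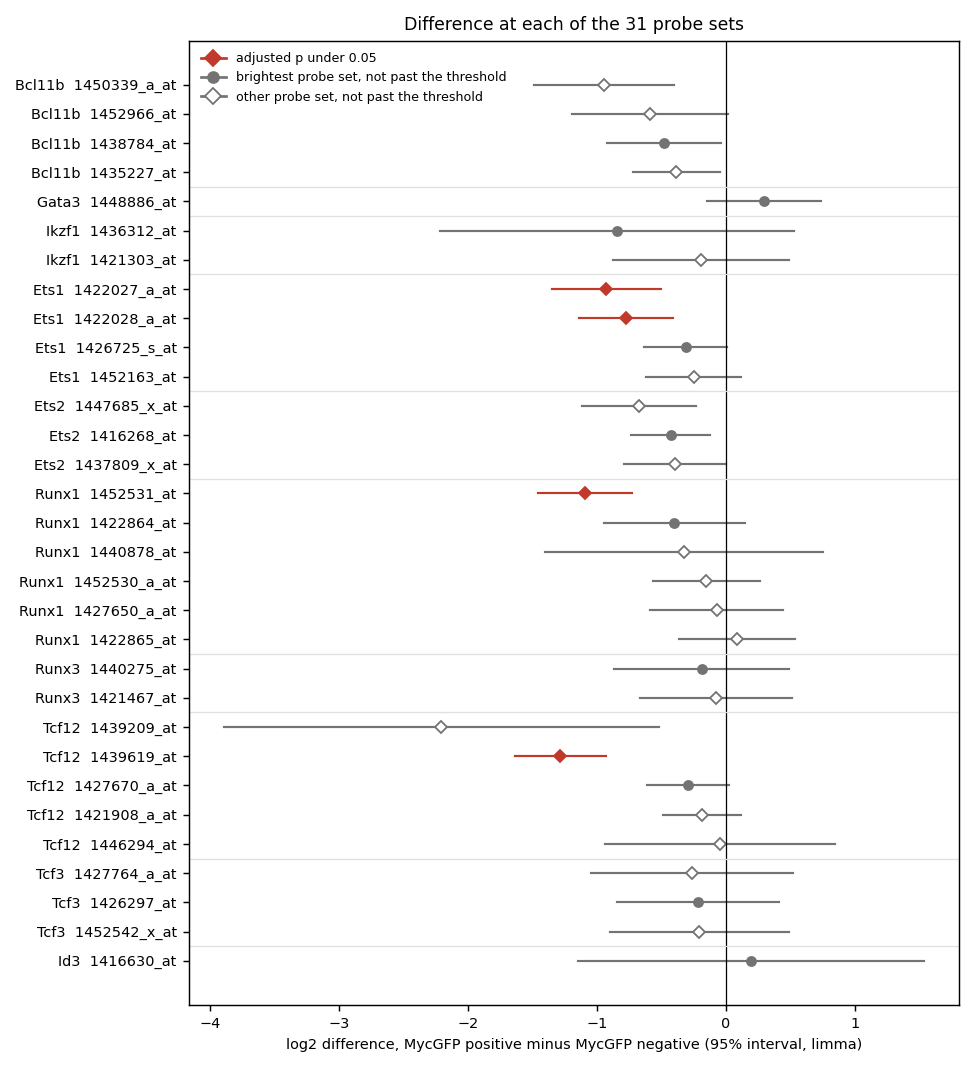
Log2 difference (MycGFP positive minus MycGFP negative) with limma's 95% interval at each of the 31 probe sets, grouped by gene; circles mark the brightest probe set of a gene, diamonds the others, and red an adjusted p under 0.05. The 4 red probe sets lie between -1.28 and -0.77, and those of one gene can be far apart, as for Tcf12 and Runx1.

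Bcl11b, the zinc finger repressor that seals commitment and holds off natural killer genes, had 4 probe sets, all with a log2 difference below 0 and none past the threshold. At 1438784_at, its brightest, the intensities were 6464, 9232 and 9145 on positive arrays, against 10737, 12218 and 11226 on negative arrays. The groups did not overlap, and positive array 1 was the lowest. The mean was 8280 ± 1573 in positive and 11393 ± 755 in negative cells (SD, n = 3 each), 1.39-fold lower (log2 difference -0.48, 95% interval -0.92 to -0.04, adjusted p = 0.192 by limma over all genes). The dimmer 1450339_a_at had 742, 1020 and 1215 on positive arrays, against 1587, 2062 and 2013 on negative arrays. Every positive value was below every negative one, at a log2 difference of -0.95 (adjusted p = 0.06 by limma over probe sets). It passed with the array number as a block (adjusted p = 0.0401), with centring (0.0471) and with low values left out (0.0461). Whichever 1 array was left out, it missed the threshold (limma, adjusted p = 0.0721 to 0.165). At 1435227_at the log2 difference was -0.39 and the groups were separated, and at 1452966_at it was -0.59 and they overlapped.

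Gata3, which acts upstream of Bcl11b in commitment, went the other way in value without passing. Its only probe set read 1789, 2583 and 1931 on positive arrays, against 1652, 1871 and 1570 on negative arrays. Positive array 1 lay below negative array 2, so the groups overlapped. The log2 difference was 0.29 (95% interval -0.15 to 0.73, limma, adjusted p = 0.428), which covers ratios of positive to negative from 0.904 to 1.66.

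Ikzf1 varied widely among the arrays of each group and did not pass. At 1436312_at it had 3858, 1718 and 1015 on positive arrays, against 4759, 4252 and 1936 on negative arrays. Each positive array was below the negative array of its number, but positive array 1 was above negative array 3. Within a group the highest array was 3.80-fold (positive) and 2.46-fold (negative) above the lowest. The log2 difference was -0.85 with a 95% interval of -2.23 to 0.54 (limma, adjusted p = 0.473), which covers ratios of positive to negative from 0.213 to 1.45. It was -1.36 without positive array 1 and -0.40 without positive array 3. The interval is from the fit without a block. With the array number as a block the unadjusted p was 0.0187 and the adjusted p 0.112 (limma), so Ikzf1 did not pass. The second probe set of Ikzf1, 1421303_at, was close to the array median at 27.0 to 47.9 on positive and 30.2 to 46.8 on negative arrays.

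Ets1 and Ets2 encode related ETS factors, ETS1 being the more closely tied to T cell development. Ets2 had the smallest p of the 10 genes. Its brightest probe set, 1416268_at, read 10530, 10934 and 11925 on positive arrays, against 15590, 15010 and 14321 on negative arrays. All positive values were lower, with a mean of 11130 ± 718 in positive and 14974 ± 635 in negative cells (SD, n = 3 each). It was 1.35-fold lower (log2 difference -0.43, 95% interval -0.72 to -0.14, limma, adjusted p = 0.0978). With a trended and robust variance it passed (adjusted p = 0.034), and over all other settings its adjusted p was 0.0536 to 0.249. The other Ets2 probe sets also separated the groups. Of these, 1447685_x_at had 845 to 985 on positive and 1181 to 1766 on negative arrays, and 1437809_x_at lay near or below the array median.

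At Ets1 the probe sets disagreed in size. The dimmer 1422027_a_at had 543, 548 and 606 on positive arrays, against 1169, 1226 and 867 on negative arrays. The positive arrays lay close together and all below the negative ones, at 1.90-fold lower (log2 difference -0.93, SE 0.17, adjusted p = 0.0345 by limma). At 1422028_a_at the values were 2424, 2637 and 2375 on positive arrays, against 4819, 4304 and 3661 on negative arrays, 1.71-fold lower (limma, adjusted p = 0.038). Under the block on array number neither passed (adjusted p = 0.0608 and 0.055). Both also missed the threshold when any 1 array other than negative array 3 was left out (adjusted p = 0.073 to 0.122). The brightest, 1426725_s_at, which stands for the gene, had 7015, 7904 and 7875 on positive arrays, against 9771, 9872 and 8674 on negative arrays. This was 1.24-fold lower and separated, at a log2 difference of -0.31 (95% interval -0.62 to -0.002, adjusted p = 0.223 by limma over all genes). The fourth, 1452163_at, overlapped between the groups at a log2 difference of -0.25. Whether the probe sets of Ets1 differ from each other in their change was not tested.

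Runx1 can start at a distal and at a proximal promoter, whose transcripts encode proteins with different first residues. Its promoter windows and those of Bcl11b and Tcf12 are shown because probe sets of Runx1 and Tcf12 diverged and because Bcl11b and Tcf12 were among the genes with separated groups. They are from RefSeq (GRCm38.p6), 250 bases before to 50 after the start, 5′ to 3′ on the gene's strand. Capitals mark matches on either strand to the motifs searched. These were the E-box bound by MYC, with the letters CACGTG, and the E-box of E proteins, with the letters CAGNTG. For RUNX factors the letters were TGTGGT. For ETS factors they were GGAAGT. For GATA factors they were AGATAA. No matches overlapped in these windows.
Runx1 distal, chr16:92826025-92826324, minus strand: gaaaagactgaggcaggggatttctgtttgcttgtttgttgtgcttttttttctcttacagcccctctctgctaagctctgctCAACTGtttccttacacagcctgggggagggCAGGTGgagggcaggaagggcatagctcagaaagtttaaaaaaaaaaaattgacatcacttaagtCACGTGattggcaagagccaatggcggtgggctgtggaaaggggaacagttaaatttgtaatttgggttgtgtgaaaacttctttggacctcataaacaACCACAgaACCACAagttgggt
Runx1 proximal, chr16:92697280-92697579, minus strand: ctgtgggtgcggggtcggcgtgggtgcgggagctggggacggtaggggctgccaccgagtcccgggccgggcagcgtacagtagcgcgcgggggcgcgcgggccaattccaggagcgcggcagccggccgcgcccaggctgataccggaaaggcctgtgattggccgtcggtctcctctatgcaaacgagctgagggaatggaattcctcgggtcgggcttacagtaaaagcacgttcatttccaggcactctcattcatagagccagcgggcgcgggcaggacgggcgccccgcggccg
Bcl11b, chr12:108003365-108003664, minus strand: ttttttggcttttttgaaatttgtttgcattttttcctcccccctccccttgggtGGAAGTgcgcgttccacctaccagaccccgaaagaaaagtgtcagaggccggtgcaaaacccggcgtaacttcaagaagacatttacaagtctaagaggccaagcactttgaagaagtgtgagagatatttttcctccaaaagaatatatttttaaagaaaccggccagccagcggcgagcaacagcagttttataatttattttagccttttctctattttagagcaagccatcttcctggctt
Tcf12, the most upstream of 3 windows, chr9:72111770-72112069, minus strand: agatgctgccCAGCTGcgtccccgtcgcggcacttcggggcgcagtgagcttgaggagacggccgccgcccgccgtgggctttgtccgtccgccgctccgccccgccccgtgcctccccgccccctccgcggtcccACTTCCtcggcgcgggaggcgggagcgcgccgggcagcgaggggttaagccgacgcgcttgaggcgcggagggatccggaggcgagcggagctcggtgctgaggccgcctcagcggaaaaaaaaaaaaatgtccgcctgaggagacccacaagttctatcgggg

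The distal Runx1 window held 1 CACGTG, 2 CAGNTG matches and 2 RUNX matches, while the proximal window held no match. The window of Ets2, whose groups were also separated, and the other Tcf12 windows held no match and are not shown. Windows were found for 9 of the 10 genes, 14 in all. CACGTG was in 1 of the 14, beside 7.15% of all 32817 windows in the table. CAGNTG was in 4 of 14, beside 51.4%, the RUNX letters in 2, beside 16.8%, the ETS letters in 3, beside 23.8%, and the GATA letters in 0, beside 11.2%. These are letter matches and say nothing of binding in these cells.

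Of the 6 Runx1 probe sets, 1 passed. At 1452531_at the intensities were 35.5, 36.5 and 41.9 on positive arrays, against 91.0, 80.8 and 71.7 on negative arrays. The groups were far apart relative to their spread, but the positive values were near the array medians given above. At -1.09 ± 0.15 (log2 difference, SE) it had an adjusted p of 0.0176 by limma, and of 0.04 under the block. It missed the threshold without positive array 1, 2 or 3 or negative array 2 (adjusted p = 0.0569 to 0.0752). The brightest Runx1 probe set, 1422864_at, had 3044, 3623 and 3260 on positive arrays, against 5515, 4670 and 3202 on negative arrays. Negative array 3 lay among the positive ones, and the log2 difference was -0.40 (95% interval -0.94 to 0.15, limma, adjusted p = 0.379). At the other 4 probe sets the groups overlapped, with log2 differences of -0.32 to 0.09. The deposited values and the annotation used here do not say which transcript each probe set reads.

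Runx3, which directs the cytotoxic CD8 lineage, showed no separation. At 1440275_at it had 287, 239 and 142 on positive arrays, against 218, 239 and 276 on negative arrays. The numbers 1 and 3 moved in opposite directions, and the log2 difference was -0.19 (95% interval -0.87 to 0.49, limma, adjusted p = 0.779). Without positive array 3 it was 0.11, so its sign depends on that array. The other Runx3 probe set was dim, at 42.6 to 69.9 on positive and 44.7 to 59.7 on negative arrays.

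**Figure D3:**
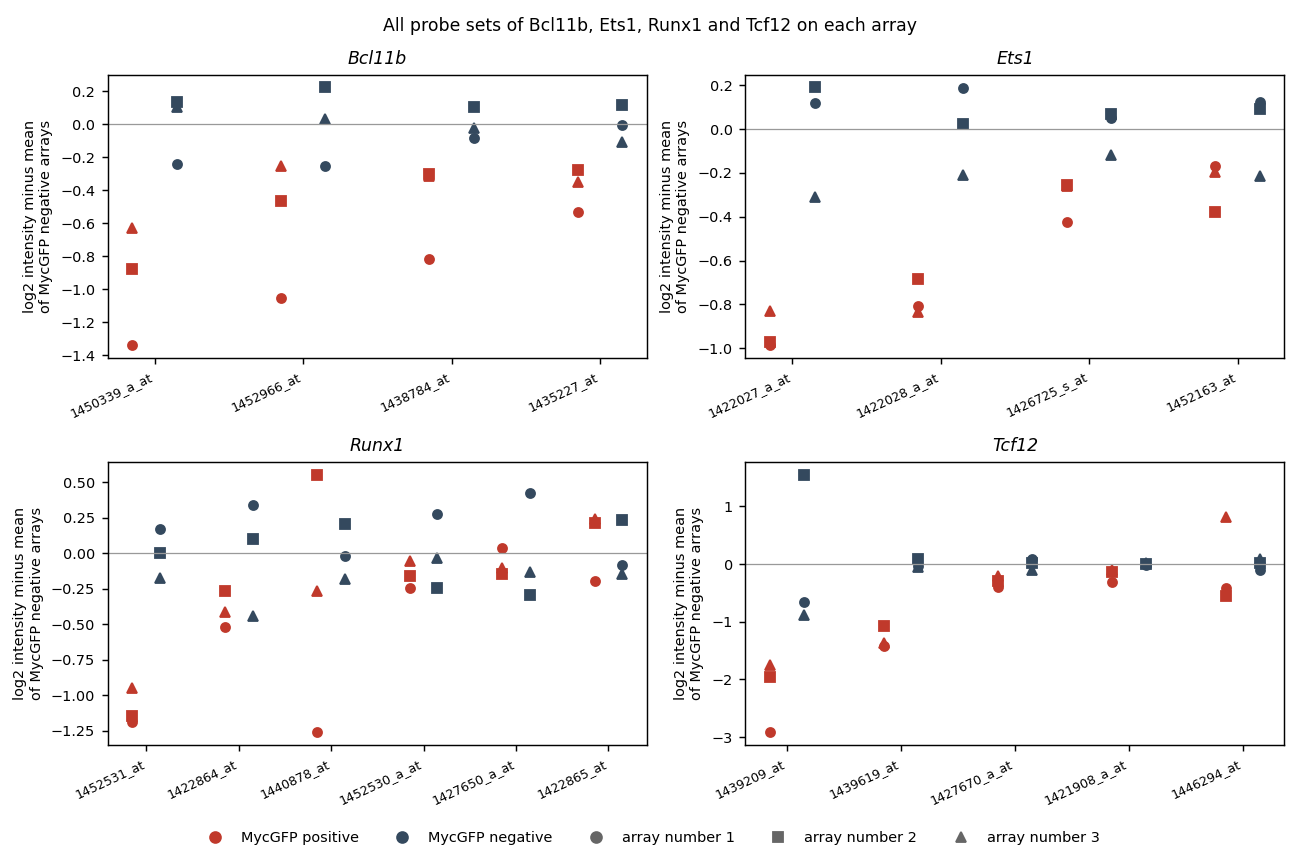
Log2 intensity of every probe set of Bcl11b, Ets1, Runx1 and Tcf12 on each array, minus the mean of the 3 MycGFP negative arrays of that probe set; red points on the left are MycGFP positive arrays, dark points on the right MycGFP negative arrays, and symbols give the array number. The groups are separated at 3 of 4 probe sets of Bcl11b, 3 of 4 of Ets1, 1 of 6 of Runx1 and 4 of 5 of Tcf12, by unequal amounts, and none of the Bcl11b probe sets passed the test (limma).

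Among the E proteins, Tcf12, which encodes HEB, held the probe set with the smallest p of the 31. At 1439619_at it had 387, 491 and 401 on positive arrays, against 1005, 1095 and 999 on negative arrays. The largest positive value was less than the smallest negative one by a wide margin, and both groups were tight, at 426 ± 56.5 in positive and 1033 ± 53.8 in negative cells (SD, n = 3 each). It was 2.44-fold lower, and limma gave -1.28 ± 0.15 (log2 difference, SE) and an adjusted p of 0.0137. It was still called under the block (adjusted p = 0.0277), and missed the threshold without positive array 2 (0.0585), positive array 3 (0.0555) or negative array 2 (0.0503).

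The other Tcf12 probe sets gave smaller or less even differences. The brightest, 1427670_a_at, had 4133, 4428 and 4729 on positive arrays, against 5786, 5486 and 5028 on negative arrays. The groups were separated, 1.23-fold apart (log2 difference -0.29, 95% interval -0.60 to 0.02, limma, adjusted p = 0.249). At 1439209_at the values were 173, 333 and 387 on positive arrays, against 819, 3809 and 702 on negative arrays. Negative array 2, where the myeloid markers summed to 10835, stood far above the other negative arrays, and the log2 difference was -2.21 with it and -1.43 without it (limma, adjusted p = 0.123 and 0.134). The part of myeloid cells in this value was not tested. At 1421908_a_at the groups were separated at a log2 difference of -0.19, and at 1446294_at they overlapped, positive array 3 being the highest of the 6 at 775.

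Tcf3, which encodes E2A, and its inhibitor gene Id3 did not follow the sort. At 1426297_at Tcf3 had 3444, 2162 and 2387 on positive arrays, against 2903, 2424 and 3960 on negative arrays. The groups overlapped, as they did at the other 2 Tcf3 probe sets, with log2 differences of -0.26 to -0.20 over the 3. For the brightest, the 95% interval was -0.84 to 0.41 (limma, adjusted p = 0.714). Id3 read 829, 556 and 323 on positive arrays, against 703, 652 and 215 on negative arrays. It was lowest on the arrays numbered 3 and highest on those numbered 1 in both groups, so the arrays of one group lay up to 3.27-fold apart, more than the 1.15-fold between the groups. The log2 difference was 0.20 (95% interval -1.16 to 1.55, limma, adjusted p = 0.896), and its sign turned without positive array 1 or negative array 3 and with array weights.

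The relatives of the 10 factors gave no call either. Of 21 measured genes of the E protein and ID, GATA, BCL11, RUNX, ETS and Ikaros families, 0 passed (limma, beside 6.13% of all genes). Unadjusted, 3 were lower and 1 higher at a p under 0.05, beside 7.35% and 14.7% of all genes. Their median log2 difference was 0.004. Elf1, an ETS factor gene, had 2467, 1974 and 2277 on positive arrays, against 3647, 5472 and 3157 on negative arrays. It was separated between the groups at a log2 difference of -0.84 (limma, adjusted p = 0.0961). Id1, an inhibitor of E proteins like Id3, had 538, 582 and 959 on positive arrays, against 367, 439 and 255 on negative arrays. All positive values were above the negative ones, at a log2 difference of 0.96 (limma, adjusted p = 0.127). Id2, named after its values were seen, had 584, 1959 and 2996 on positive arrays, against 796, 1936 and 4022 on negative arrays, so it was lowest on the arrays numbered 1, where Id3 was highest.

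Some other regulators of T cell fate passed. Of 17 measured, 3 fell and 0 rose, beside 1.51% and 4.62% of all genes, and 16 had a difference below 0. Rora, a nuclear receptor gene of innate and helper lymphoid cells, had 18.4, 14.5 and 13.3 on positive arrays, against 141, 86.0 and 75.7 on negative arrays. It was 6.38-fold lower (limma, adjusted p = 0.0116), but its positive values were below the array median, and with the mean of all its probe sets the log2 difference was -0.99 in place of -2.67 and it did not pass (adjusted p = 0.0853). Egr2, an early response gene of T cell receptor signalling, fell 5.27-fold and Foxo1, a factor of resting T cells, 2.40-fold (limma, adjusted p = 0.0179 and 0.0196). Without positive array 2 or 3 none of the 3 was called, and without positive array 1 or negative array 2 Rora alone was. Whether these changes differ from those of the 10 factors was not tested.

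Of 22 measured genes of the T cell programme that these factors are known to act on, 3 fell and 1 rose, beside 1.51% and 4.62% of all genes, and the median log2 difference was -0.33. Cd4 fell 7.26-fold, with 871, 406 and 723 on positive arrays, against 5120, 5966 and 3208 on negative arrays (limma, adjusted p = 0.017). Themis and, named after its values were seen, Cd5 fell 1.55-fold and 1.57-fold, both signalling genes of thymocytes, and neither passed under the block (adjusted p = 0.0634 each). Il7r, the interleukin 7 receptor gene, rose 5.77-fold (limma, adjusted p = 0.0333). Each of these 4 calls was lost without positive array 2 or 3. Without negative array 2 the calls of Cd4 (adjusted p = 0.0605), Themis and Cd5 were lost, and without negative array 1 those of Themis and Cd5. Themis lost its call whichever 1 array was left out (adjusted p = 0.0664 to 0.127), and Il7r kept its call only without negative array 2 (adjusted p = 0.046). With the mean of all its probe sets Themis had a log2 difference of -1.24 (limma, adjusted p = 0.0104), in place of -0.63. Of 15 measured genes of early progenitors that are shut off at commitment, 0 passed (limma), beside 6.13% of all genes. At an unadjusted p under 0.05, 0 were lower and 0 higher, beside 7.35% and 14.7%. On all 6 arrays, 8 lay below the array median and 2 above it. The brightest, Mycn, named after its values were seen, had 5937 to 10682 on positive and 7968 to 13090 on negative arrays. The largest differences in that list were those of Cd44, an adhesion receptor gene, and Mef2c, a progenitor transcription factor gene, at log2 differences of -1.92 and -0.89 (limma, adjusted p = 0.455 and 0.734). With 1 array left out they were -3.27 (without negative array 3) to -1.22 (without positive array 3) for Cd44, and -1.95 (without positive array 1) to -0.064 (without negative array 1) for Mef2c. The values of Cd44 were 641, 379 and 115 on positive arrays, against 2900, 2967 and 175 on negative arrays, so negative array 3 lay among the positive ones. Each positive array was below the negative array of its number. With the array number as a block the unadjusted p was 0.0137 and the adjusted p 0.0938 (limma), so Cd44 did not pass.

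**Figure D4:**
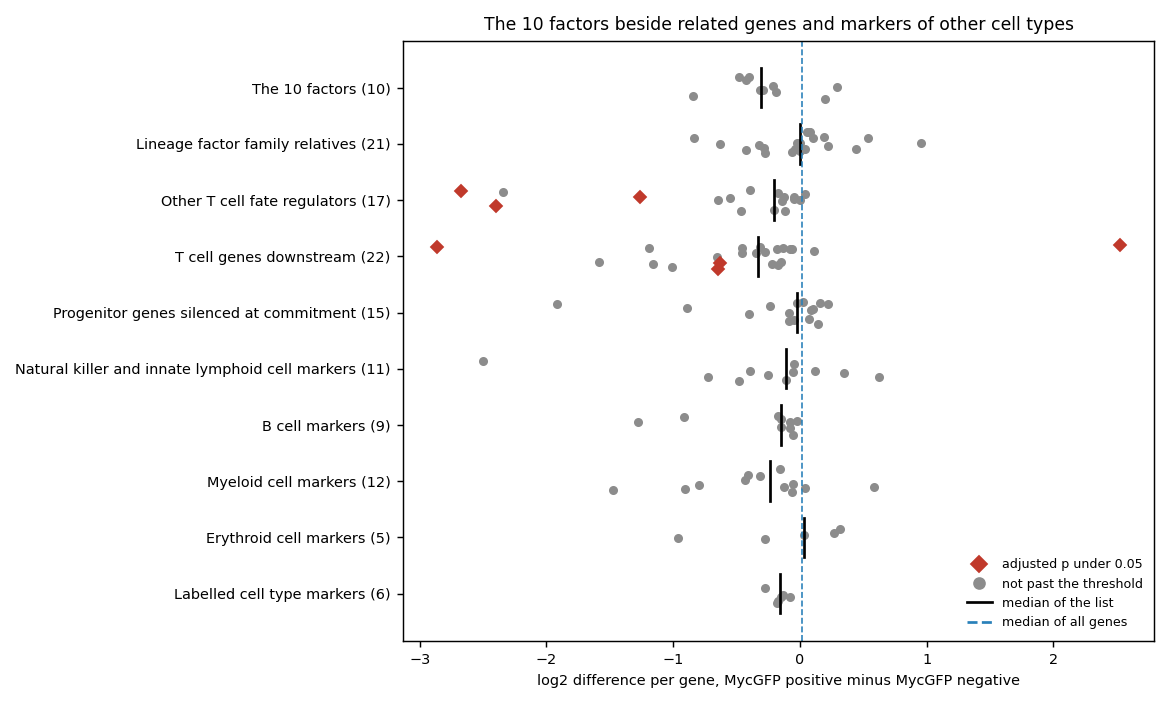
Log2 difference (MycGFP positive minus MycGFP negative) of each gene, for the 10 factors and 9 other lists with the number of measured genes in brackets; red diamonds have an adjusted p under 0.05, black bars are list medians and the dashed line is the median of all genes. The 10 factors sit mostly between -0.48 and 0.29 with Ikzf1 at -0.85, and the red points are 3 other T cell fate regulators and 4 genes of the T cell programme.

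For the 3 factors with the smallest p, the genes with the most similar pattern over the 6 arrays were sought among 9096 other genes at or above the median level, by the root mean square difference of log2 values centred on each gene's mean. Closest to Ets2, whose own values spanned 0.57, were Mark2, a polarity kinase gene (0.045), Brap (0.047) and Sox4, a transcription factor gene of lymphoid progenitors (0.049). Closest to Bcl11b, which spanned 0.92, were Lmtk2 (0.042), Rac2, a GTPase gene of blood cells (0.047), and Kdm6b, a histone demethylase gene (0.054). Closest to Ets1, which spanned 0.49, were Dntt, which encodes terminal transferase (0.023), Gpbp1l1 (0.035) and Plcg1, a phospholipase gene of T cell receptor signalling (0.035). None of these 9 genes passed (limma, adjusted p of 0.0976 to 0.261). The likeness covers 6 arrays, of which 3 and 3 share a sort gate, and describes these values only.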

How the data were processed

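RNA of 3 MycGFP positive and 3 MycGFP negative sorted samples was amplified from 5 ng, biotin-labelled and hybridised to Affymetrix mouse arrays, per the labels' protocols. The authors deposited intensities on a linear scale, 1 per probe set, made with RMA per the submitters' processing notes (version not given in the sources used here). Their log2 was taken. RMA scales arrays to each other and thereby hides any change in the amount of RNA per cell, and no detection calls were used. Amplification from little RNA adds noise to dim genes, and having 3 arrays a group limits the precision.

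Of 45101 probe sets, 64 controls, 932 with several symbols and 9160 with none were left out. Symbols came from the platform annotation, updated by Entrez identifier in the RefSeq table of GRCm38.p6 (34741 matched). A gene was represented by its probe set with the highest mean. Genes, and separately all named probe sets, were tested in limma 3.58.1 under R 4.3.3 (lmFit, eBayes, no covariate, two-sided, 4 residual degrees of freedom), with Benjamini-Hochberg adjustment over all features and a threshold of 0.05, tested on simulated data. Differences are positive minus negative; folds are ratios of geometric means.

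The members and lists were chosen with earlier results of these data known. Named were all members, Myc, and of each other list up to 3 called genes with the smallest adjusted p, or else the 2 largest differences. Deviations from the group means correlated across genes at r = 0.38, 0.21 and 0.39 for arrays of one number, and at -0.32 to -0.03 for the others. Arrays of one number were therefore treated as pairs in the fits with a block, which is an assumption. The main tests did not pair arrays. Nothing says more about the origin of replicates than the design's 3 leukaemias, so p-values measure the spread between these samples. Alternatives were the number as a block, each array left out, centring, quantile normalization, a filter on low values, a trended and robust variance, array weights, the mean of all probe sets and leaving out cross-hybridising ones.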

Additional observations from a re-analysis of the deposited data

How the results depend on the processing

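The count of factors called in the test of genes was 0 lower and 0 higher in each setting run, without any 1 array included, except that a trended and robust variance called 1 lower, Ets2. Of the 31 probe sets, 0 were higher in each setting. Those lower numbered 4, and 3 to 5 under the settings that kept all 6 arrays (3 with the array number as a replicate block). With 1 array left out they numbered 0 to 4: 0 without positive array 2, positive array 3 or negative array 2, 1 without positive array 1, 2 without negative array 1 and 4 without negative array 3. The leave-one-out fits have fewer arrays and, without positive array 2, called nothing among all features. Of all named probe sets, 754 were lower with all 6 arrays, and 0 to 665 with 1 array left out. With centring the median difference (log2) was -0.14 over all genes, against 0.01 without it, and -0.45 over the 10 factors, against -0.30. The distance between both medians was -0.32 in either case. That was fixed in advance, because centring moves the differences of all genes by the same amount. Centring turned no sign among the factors or their probe sets, nor did quantile normalization. The block could not turn a sign, because in this balanced design it leaves each difference unchanged.

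Signs turned only for values that had not passed, and the cause was not tested. With array weights Id3 had -0.040 (-0.028 in the fit of probe sets) and Tcf12 1446294_at 0.077. Leave-one-out values turned sign within these ranges: Id3 -0.35 to 0.55, Runx3 -0.40 to 0.11 and its probe set 1421467_at -0.32 to 0.042, Runx1 1427650_a_at -0.22 to 0.14 and 1440878_at -0.76 to 0.14, Tcf3 1427764_a_at -0.55 to 0.016, and Tcf12 1446294_at -0.48 to 0.20. Among other genes the ranges were -3.17 to 0.046 for S100a9, -0.55 to 0.85 for Car2 and -0.36 to 0.042 for Il2ra. All genes called numbered 840 higher and 275 lower, and with 1 array left out 0 to 862 and 0 to 238. Genes of the T cell programme called lower numbered 3, and 5 with centring, 6 with low values left out or array weights and 7 with the mean of all probe sets. With the block they numbered 2, and with 1 array left out 0 to 3. The count of all genes called lower also rose from 275, to 381 with centring, 349 with array weights and 393 with the mean of all probe sets. It was 328 of 9097 genes with low values left out, and 354 with the block. Signal near the array median limits Runx1 1452531_at and Rora.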
